A study of Mus musculus with 2 samples.

Results

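The genes of the mitochondrial respiratory chain and ATP synthase were followed through the cell types of the adult mouse submandibular gland, a major salivary gland. They were chosen by symbol, with earlier results of these data known: those starting Ndufa, Ndufb, Ndufc, Ndufs, Ndufv, Uqcr, Cox4i, Cox5, Cox6, Cox7, Cox8 or Atp5, the genes Sdha to Sdhd, and the mitochondrial mt-Nd, mt-Co, mt-Cytb and mt-Atp genes. This gave 106 of the 27998 genes in the tables. Of these, 83 encode subunits made from nuclear genes, 13 encode subunits made from mitochondrial DNA, and 8 (Ndufaf1 to Ndufaf8) encode assembly factors of complex I. Atp5s and Cox7a2l, which are not core subunits, were kept apart from all sums. The nuclear subunits comprised 38 of complex I, 4 of complex II, 8 of complex III, 17 of complex IV and 16 of complex V, and the mitochondrial ones 7 of complex I, 1 of complex III, 3 of complex IV and 2 of complex V.

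Whole salivary glands of adult mice, aged 12 weeks, had been dissociated to single cells and run on the 10x Chromium system, which tags the 3' ends of transcripts inside droplets. A single library came from p63 wild-type (WT) and a single library from p63 KO animals. Trp63 encodes p63, which is known for keeping basal and progenitor cells of stratified and glandular epithelia. The labels do not say how p63 was removed, from which cells, or how many glands were used, and 1 label names the source as epithelial progenitor cells although immune, endothelial and red cell transcripts were present.

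Oxidative phosphorylation passes electrons from NADH and succinate through complexes I to IV of the inner mitochondrial membrane to oxygen, and complex V, the ATP synthase, uses the resulting proton gradient to make ATP. Complexes I, III, IV and V are mosaics, with a few core proteins translated inside the mitochondrion from mitochondrial DNA and the remaining proteins imported from the cytosol, whereas all subunits of complex II are imported. In salivary glands, the duct cells that move ions are known for dense mitochondria along their basal folds.

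Promoters of members whose transcript is described below are shown first, since motifs for factors with a known part in transcription of nuclear respiratory genes, namely NRF1, ETS factors such as GABP, YY1 and the estrogen-related receptors (ERR), can be read from them. Of the 83 nuclear subunits, 67 had an entry among RefSeq promoters of build GRCm38.p6, which run from 250 bases before to 50 bases after a start. Each line gives the 100 bases before and the first 10 bases after the start, 5′ to 3′ on the gene's strand, and capitals mark a match to 1 of the searched motifs on either strand.
Uqcr11 promoter, chr10:80406812-80406921, minus strand: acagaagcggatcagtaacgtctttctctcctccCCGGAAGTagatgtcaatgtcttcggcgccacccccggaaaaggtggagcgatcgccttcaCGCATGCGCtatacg
Atp5g2 promoter, chr15:102671038-102671147, minus strand: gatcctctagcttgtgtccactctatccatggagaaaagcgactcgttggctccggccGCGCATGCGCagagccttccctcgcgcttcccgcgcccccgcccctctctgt
Atp5k promoter, chr5:108434390-108434499, minus strand: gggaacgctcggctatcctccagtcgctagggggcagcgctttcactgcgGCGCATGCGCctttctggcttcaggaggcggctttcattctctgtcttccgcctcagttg
Ndufa11 promoter, chr17:56717662-56717771, plus strand: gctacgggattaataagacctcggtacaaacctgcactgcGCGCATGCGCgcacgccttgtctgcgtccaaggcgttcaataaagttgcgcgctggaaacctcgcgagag
Atp5h promoter, chr11:115419910-115420019, minus strand: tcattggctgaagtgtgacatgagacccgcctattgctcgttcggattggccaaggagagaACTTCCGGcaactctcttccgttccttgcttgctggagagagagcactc
Uqcrh promoter, chr4:116075061-116075170, minus strand: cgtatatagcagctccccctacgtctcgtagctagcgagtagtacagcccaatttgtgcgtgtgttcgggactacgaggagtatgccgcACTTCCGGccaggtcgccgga
Atp5j promoter, chr16:84834967-84835076, minus strand: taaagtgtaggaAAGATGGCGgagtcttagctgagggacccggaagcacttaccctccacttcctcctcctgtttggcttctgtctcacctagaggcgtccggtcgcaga
Atp5g3 promoter, chr2:73911317-73911426, minus strand: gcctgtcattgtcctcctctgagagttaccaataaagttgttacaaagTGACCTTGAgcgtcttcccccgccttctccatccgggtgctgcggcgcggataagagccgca
Cox7a1 promoter, chr7:30184071-30184180, plus strand: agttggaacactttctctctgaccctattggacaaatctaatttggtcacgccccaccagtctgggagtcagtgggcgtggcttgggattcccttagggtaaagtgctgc
Ndufc1 promoter, chr3:51408946-51409055, minus strand: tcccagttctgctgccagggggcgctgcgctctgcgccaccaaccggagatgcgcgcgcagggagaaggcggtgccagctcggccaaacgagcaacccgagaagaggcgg

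The NRF1 motif was searched as GCGCATGCG, the ETS motif as CCGGAAGT, the YY1 motif as AAGATGGCG and the ERR motif as TCAAGGTCA, each on both strands. In the promoters of Atp5g2, Atp5k and Ndufa11 the match lies in a palindrome, so the matches on the 2 strands share letters. Over the whole 300-base windows, NRF1 letters were found in 8 of 67 members (11.9%), namely Atp5g2, Atp5k, Atp5l, Cox6a1, Ndufa11, Ndufa8, Uqcr11 and Uqcrc1, and in 1.95% of all 27025 genes with a window. YY1 letters were found in 7 of 67 members (10.4%) and in 1.64% of all genes. ETS letters were found in 5 members (7.46%) against 4.31% of all genes, and ERR letters in 2 members, Atp5g3 and Sdhd (2.99% against 0.466%). Cox7a1 and Ndufc1 had no match in the stretch printed, and the YY1 match of Ndufc1 lies after its start. Members described below as lower in the KO library were found both with matches, such as Uqcr11, and without them. A match is a description of the sequence only.

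The tables held 1970 WT and 4726 KO barcodes, of which 1902 and 4087 had at least 200 genes and were used. A unique molecular identifier (UMI) marks 1 captured molecule, and the median barcode held 3267.5 UMIs in the WT and 2089 in the KO library. The libraries shared 11 barcode sequences. A doublet caller marked 2 WT and 1 KO barcodes, too few to have worked, and none was removed. Trp63 itself had 153 UMIs in WT and 20 in KO barcodes, or 19.2 and 2.32 CPM (counts in 1000000 UMIs other than mt-). Tags from the 3' end of its transcript check a deletion only where it reaches that end or lowers the transcript. The Trp63 values are pooled over all barcodes, and the mix of cell classes differed between the libraries. Barcodes named basal duct-like below gave 23.1% of WT and 5.32% of KO UMIs other than mt- in the classes compared. The part of this mix in the Trp63 difference was not tested. All 13 mt- genes in the tables are members, so a limit on the mt- share is set wholly by them. Barcodes at or over 20% mt- UMIs made up 12.6% of the WT library (239 barcodes; exact binomial 95% interval 11.1 to 14.1%) and 40.7% of the KO library (1664 barcodes; 39.2 to 42.2%). As each genotype had 1 library, the genotypes were compared without a test. Intervals cover counting error only, and any difference between genotypes is also a difference between 2 libraries, from which it cannot be told apart.

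Each library was clustered on its own without the members, so that they did not define the classes in which they were compared, and clusters were named from marker genes with "-like". Ionocyte-like barcodes carried Foxi1 and Ascl3, and their 105 WT and 648 KO barcodes had 8 of 9 ionocyte markers with UMIs, Slc4a9 being at 0 in both libraries. Foxi1 had 245 CPM in their WT cluster and 680 and 365 CPM in their KO clusters, and Ascl3 370, 282 and 75.4 CPM. In the same order they also held Klk1, a granular convoluted tubule marker, at 61300, 9707 and 59160 CPM. The WT granular convoluted tubule-like cluster had Klk1 at 160300 CPM. The granular convoluted tubule-like class, 272 WT and 612 KO barcodes, carried all 17 of its markers, kallikreins and Egf among them, at 24.6% and 17.1% of UMIs other than mt-. In acinar-like barcodes, 381 in WT and 172 in KO, the markers made up 49.5% and 40.2% of such UMIs. Intercalated duct-like (359 and 394 barcodes), basal duct-like (449 and 113), macrophage-like (95 and 276), endothelial-like (50 and 334) and red cell-like barcodes (89 and 66) completed the 8 classes compared between libraries. In the KO library, 1172 barcodes in 3 clusters stayed unnamed because no marker set reached 3 markers.

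Nuclear members were counted as a share of UMIs other than mt-, so that the mt- share did not enter their level. As counts of 3' tags need no division by transcript length, values are UMIs or CPM. Complex IV gave the most counted nuclear members, Cox4i1 with 13273 WT and 22448 KO UMIs (1668 and 2605 CPM) and Cox8a with 10858 and 14320 UMIs (1364 and 1662 CPM). Cox4i1 encodes the ubiquitous form of subunit 4, which takes part in control of the enzyme by ATP, and its gene overlaps the gene model Gm20388 on the same strand. In complex V the leading members were Atp5l, which encodes subunit g of the membrane part (8030 and 12485 UMIs, 1009 and 1449 CPM), and Atp5b, which encodes the catalytic beta subunit (7280 and 9533 UMIs, 915 and 1106 CPM). Over both libraries added, complex III was led by Uqcrh, the hinge protein (974.9 and 1083 CPM), and Uqcrb (735 and 761 CPM), with Uqcr10 above Uqcrb in KO (809 CPM). In complex I the members with the most UMIs over both libraries added were the accessory subunits Ndufa6 (391 and 724 CPM) and Ndufb9 (435 and 577 CPM), the latter overlapping Gm49356, although Ndufa13 was first in WT (446 CPM) and Ndufa4 second in KO (675 CPM). Complex II was led by Sdhb, the iron-sulfur subunit (155 and 262 CPM), and Sdha, the flavoprotein (121 and 192 CPM).

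Few nuclear members were nearly silent. Under 50 UMIs in both libraries together were found for 5 of the 83: Ndufa4l2 (14 WT and 22 KO UMIs), Cox6a2 (8 and 2), Cox4i2 (0 and 7), and Cox7b2 and Cox8c, which had none. These are the alternative forms of subunits known from hypoxic tissue, muscle, lung or testis.

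Mitochondrial transcripts were far more numerous. The most counted were mt-Co3 (166894 WT and 378071 KO UMIs) and mt-Atp6 (145549 and 454570), which encode subunit 3 of complex IV and subunit a of the ATP synthase. Next came mt-Co1, the catalytic subunit of complex IV (111699 and 335811), and mt-Cytb, the cytochrome b of complex III (88435 and 261183). The least counted was mt-Nd6, the 1 member transcribed from the other strand (84 and 203 UMIs). Since mt-Atp8, mt-Atp6 and mt-Co3 overlap in a chain, as do mt-Nd4l and mt-Nd4, reads at these borders may be split between neighbours.

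Ionocyte-like barcodes stood highest for nuclear subunits. Nuclear subunits made up 6.72% of their UMIs other than mt- in the WT library (95% interval 6.61 to 6.83%) and 5.65% in the KO library (5.60 to 5.69%). The KO value pools clusters at 6.41% and 4.84%. Ionocytes are rare duct cells rich in proton pumps. The 38 striated or excretory duct-like barcodes, found in the WT library, followed with 5.72%, granular convoluted tubule-like barcodes had 5.29% and 4.47%, and the KO unnamed barcodes had 5.2%. The lowest levels were those of acinar-like barcodes, the cells that secrete saliva proteins, with 1.77% (1.75 to 1.78%) and 1.6% (1.57 to 1.62%), of the KO macrophage-like barcodes, and of the KO fibroblast-like barcodes, with 1.76%. In between lay intercalated duct-like (4.25% and 3.06%), basal duct-like (2.73% and 2.44%), macrophage-like (2.57% and 1.45%), endothelial-like (2.53% and 2.01%) and red cell-like barcodes (2.15% and 2.25%). The small NK or ILC-like class had 2.97% and 1.94%, and the myoepithelial-like class 2.90% and 2.37%. Neighbours in this order whose counting intervals overlapped were, in WT, the NK or ILC-like and myoepithelial-like classes and the macrophage-like and endothelial-like classes. In KO these were the myoepithelial-like class with both the basal duct-like and red cell-like ones, the endothelial-like with the NK or ILC-like class, and the adipocyte-like class (4.52%) with the granular convoluted tubule-like one.

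Against all other barcodes of the same library, the summed nuclear subunits were 2.30 times as high in WT and 1.71 times in KO ionocyte-like barcodes, 1.87 and 1.28 times in granular convoluted tubule-like barcodes, and 0.479 and 0.409 times in acinar-like barcodes. Here and below, the other barcodes differ in make-up between the libraries. In KO they include the 1172 unnamed barcodes, so a difference between the WT and KO ratios of a class can lie in the reference. A size rule replaced a test: at least 50 UMIs and a counting interval wholly beyond 2-fold, here in both libraries. All 77 nuclear subunits that had enough UMIs were higher in ionocyte-like than in other barcodes in both libraries, against 52.7% of all 8110 genes; 4 passed the size rule, where 1.33% of all genes did. In granular convoluted tubule-like barcodes 74 of 77 were higher in both libraries, against 31.8% of all genes, and 0 passed the rule, where 1.06% of all genes did. In acinar-like barcodes 76 of 77 were lower in both, against 90.6% of all genes, and 20 passed the rule, where 22.8% of all genes did. The acinar-like figures were thus near the background.

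Saliva genes filled the acinar-like totals: the 10 most counted genes held 68.4% of WT and 54.2% of KO UMIs other than mt-. When the 50 most abundant genes were taken out of the totals, an alternative chosen after the data were seen, WT acinar-like barcodes had 1.3 times the nuclear subunit level of the others, and KO acinar-like barcodes 0.745 times. The class also held 2 kinds of cluster. The clusters led by Smgc, with 207 WT and 142 KO barcodes, had 3.80% and 2.66% nuclear subunits. Those led by Car6, Lpo or Mup5, with 174 WT and 30 KO barcodes, had 0.9996% and 0.739%.

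**Figure D1:**
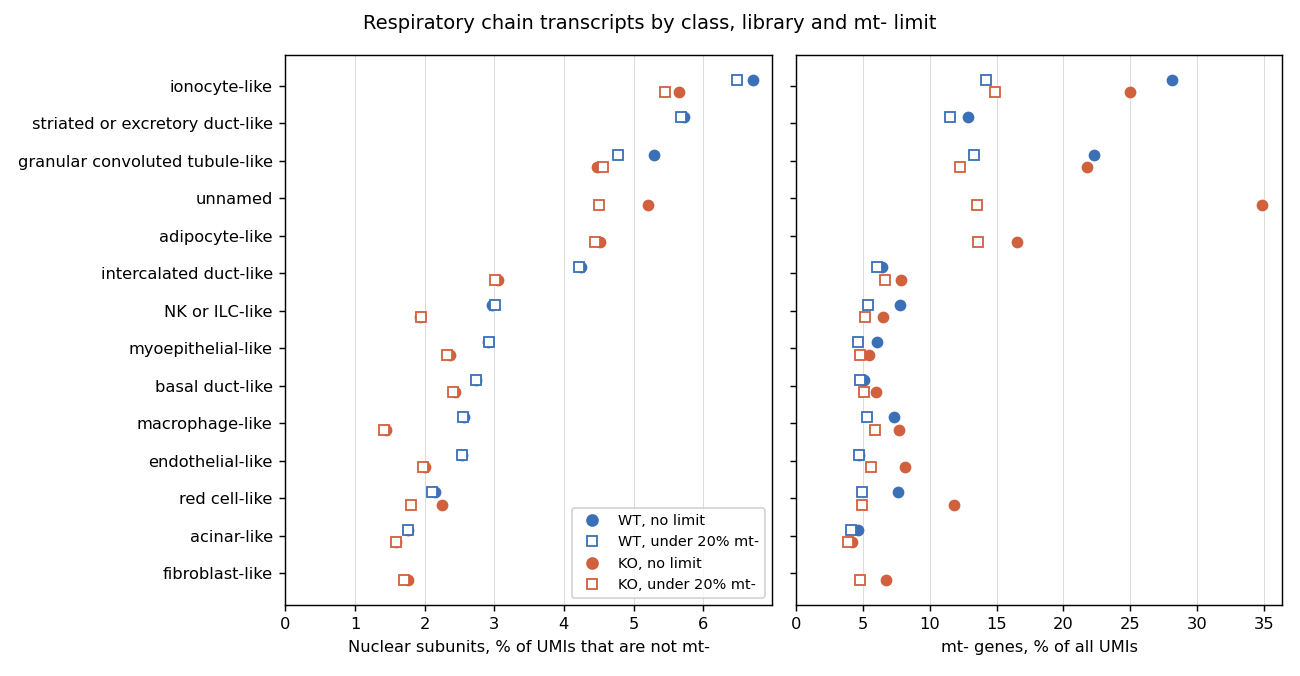
Summed nuclear subunits as a percentage of UMIs other than mt- (left) and mt- genes as a percentage of all UMIs (right) for each class; circles are all barcodes with at least 200 genes, open squares those under 20% mt-, blue WT and orange KO. Ionocyte-like barcodes were highest for nuclear subunits (6.72% in WT), and the KO unnamed barcodes had the highest mt- share (34.8%).

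Single members departed from the common order. Ndufa4, counted here with complex I by its symbol although its protein is now placed with complex IV, had 1000 CPM in WT and 1490 in KO ionocyte-like barcodes, against 308 and 543 CPM in the others, a ratio of 3.24 (2.80 to 3.74) and 2.74 (2.59 to 2.90). In macrophage-like barcodes the same gene had 235 and 142 CPM, 0.712 and 0.202 times the others, and Atp5g3, a form of the ATP synthase c subunit, was at 0.644 and 0.225 times. Ndufa1, a small complex I subunit encoded on the X chromosome, was the leading member of the granular convoluted tubule-like class at 3.35 and 1.82 times the others, and was among the lowest in acinar-like barcodes at 0.374 and 0.215 times. Atp5a1, the alpha subunit of the ATP synthase, was 2.51 and 1.61 times as high in granular convoluted tubule-like barcodes, and 0.586 and 0.576 times in red cell-like barcodes. Cox6c of complex IV was at 0.333 and 0.227 times in acinar-like barcodes.

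Basal duct-like barcodes, the class in which p63 is known to act, had a different leading pair. Uqcrc2, a core protein of complex III, was at 163 WT and 174 KO CPM there, 1.385 (1.20 to 1.59) and 1.16 (0.876 to 1.503) times the other barcodes. Atp5f1, subunit b of the ATP synthase stalk, was 1.25 and 1.20 times as high. Both KO intervals include 1. Ndufb9 at 0.597 and 0.374 times and Atp5k, the e subunit, at 0.690 and 0.350 times were the lowest there. In intercalated duct-like barcodes Ndufa7 and Ndufa2 led the WT library at 1.90 and 1.84 times the others, but both stood at 1.01 in the KO library, with intervals that include 1. Ndufa7 had 569 WT and 415 KO CPM in the class, and 299 and 412 CPM in the others. Ndufa2 had 632 and 538 CPM in the class, and 344 and 533 CPM in the others. Both the class and its reference thus differed between the libraries.

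Endothelial-like barcodes had Ndufa7 as their leading member at 1.24 and 1.11 times the others, intervals including 1, and Uqcr10 (0.646 and 0.411) and Cox7b (0.771 and 0.445) as their lowest. Uqcr10 was also lowest in myoepithelial-like barcodes (0.695 and 0.406), followed by Cox6b1 (0.836 and 0.479), with Ndufa6 leading at 1.16 and 1.20. Ndufb9 was at 0.5455 and 0.66 in red cell-like barcodes. In NK or ILC-like barcodes Atp5b (0.796 and 0.445) and Cox7c (0.911 and 0.425) were lowest, the WT intervals including 1.

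Several subunits come in paired forms, of which 1 is broadly expressed and the other is known from heart and skeletal muscle or other particular tissues. In the WT library Cox7a1, the heart and muscle form of subunit 7a, was concentrated in ion-transporting duct classes. It had 63 UMIs in 42.9% of WT ionocyte-like barcodes (303 CPM; 233 to 388) and 108 UMIs in 13.3% of KO ionocyte-like barcodes (89.9 CPM; 73.7 to 108.5). The KO ionocyte-like class pooled clusters at 116.5 and 61.7 CPM. In granular convoluted tubule-like barcodes Cox7a1 had 141 and 26.9 CPM, the KO value being under the 35.2 CPM of all KO barcodes. WT striated or excretory duct-like barcodes had 182 CPM, and the KO unnamed clusters had 61.0, 86.1 and 79.97 CPM. Macrophage- and NK or ILC-like barcodes, which were taken as background, had 35.2 and 8.85 CPM, in 8.59% and 1.36% of barcodes. After each barcode was thinned to 1000 UMIs, 23.8% of WT and 6.33% of KO ionocyte-like barcodes had a Cox7a1 UMI, against 3.13% and 1.09% of those immune-like barcodes. Both the class levels and the immune background were thus lower in the KO library.

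Measured against its partner Cox7a2, whose counts come from the same barcodes, Cox7a1 was 13.7% of the pair in WT and 4.998% in KO ionocyte-like barcodes, and 8.32% and 2.33% in granular convoluted tubule-like barcodes. The ratio to other barcodes was 8.89 (6.65 to 11.8) in WT and 3.42 (2.68 to 4.35) in KO ionocyte-like barcodes, the furthest of any nuclear subunit from 1 in that class. In all barcodes pooled Cox7a1 differed little, with 327 WT and 303 KO UMIs and a ratio of 0.856 (0.73 to 1.004).

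Other paired forms were sparse. Cox8b, the muscle form of subunit 8, had 58.4 CPM in WT and 22.6 in KO granular convoluted tubule-like barcodes, against 2.94 and 3.54 in the immune-like background. The 25 KO adipocyte-like barcodes had 88.6 CPM from 11 UMIs. Cox6b2, known from testis, had 46 UMIs in WT basal duct-like barcodes (26.0 CPM) and 2 in KO ones (5.90 CPM), with 8.81 and 1.77 CPM in the background. Ndufa4l2, known as a hypoxia-induced relative of Ndufa4, had 17 of its 22 KO UMIs in myoepithelial-like barcodes (105 CPM, 10.5% of 76 barcodes), and 0 in the 31 WT myoepithelial-like barcodes. The 7 KO UMIs of Cox4i2 lay in myoepithelial-like (4) and endothelial-like (3) barcodes. Of the 8 WT UMIs of Cox6a2, 5 were in NK or ILC-like barcodes. Ndufa4l2, Cox4i2 and Cox6a2 had too few UMIs for the size rule.

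The 3 genes Atp5g1, Atp5g2 and Atp5g3 encode the same mature c subunit of the ATP synthase ring and differ in the import sequence that is cut off. Over all barcodes, Atp5g1 made up 41.3% of their UMIs in WT and 27.6% in KO, Atp5g2 33.4% and 35.2%, and Atp5g3 25.3% and 37.2%. Ionocyte-like barcodes went from 46.7% Atp5g1 in WT to 28.6% in KO, with Atp5g3 at 30.3% and 39.3%. In intercalated duct-like barcodes Atp5g1 was 35.4% and 23.4%, and Atp5g2 33.6% and 45.4%. The Atp5g1 share was lower in the KO library in each of these 2 classes, beyond counting error. In macrophage-like barcodes it was 41.0% and 34.7%, with overlapping intervals (35.01 to 47.2% and 28.1 to 41.7%).

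Mitochondrial shares spread more widely across classes than nuclear ones. All 13 mt- genes together took 28.1% of all UMIs in WT and 25.01% in KO ionocyte-like barcodes, 22.3% and 21.7% in granular convoluted tubule-like barcodes and 34.8% in the KO unnamed barcodes. They took 4.61% and 4.17% in acinar-like, 5.08% and 5.96% in basal duct-like, 6.42% and 7.89% in intercalated duct-like and 4.76% and 8.19% in endothelial-like barcodes. Ionocyte-like barcodes had 3.93 times the mt- share of other WT barcodes and 1.43 times that of other KO barcodes.

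A 20% limit therefore fell unevenly on the classes. It removed 60% of WT (exact interval 50 to 69.4%) and 55.4% of KO (51.5 to 59.3%) ionocyte-like barcodes, and 43.8% and 47.1% of granular convoluted tubule-like ones. It also removed 77.0% of the KO unnamed barcodes (74.5 to 79.4%). Among acinar-like barcodes it removed 4.72% and 2.33%, among basal duct-like 1.34% and 2.65%, among macrophage-like 7.37% and 4.71%, and among endothelial-like 0 of 50 (exact interval up to 7.11%) and 8.38%. Intercalated duct-like barcodes lost 2.23% (0.967 to 4.34%) and 8.12% (5.62 to 11.3%), and red cell-like barcodes 11.2% and 24.2%.

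In ionocyte-like and granular convoluted tubule-like barcodes, nuclear and mt- shares are both given with the limit. The limit is set on the mt- share, so a fall of that share was fixed in advance and is no measure to compare nuclear subunits with. In red cell-like barcodes the KO to WT ratio of nuclear subunits reversed with the limit, as given below. With it, ionocyte-like barcodes had 6.49% and 5.46% nuclear subunits, granular convoluted tubule-like barcodes 4.77% and 4.56%, and intercalated duct-like barcodes 4.22% and 3.01%. The KO unnamed barcodes went from 5.2% to 4.5%. Over all barcodes of a library the limit lowered the nuclear share from 3.03% to 2.87% in WT and from 3.62% to 3.04% in KO. Mitochondrial shares under the limit, which truncates them, were 14.2% and 14.9% in ionocyte-like and 13.3% and 12.3% in granular convoluted tubule-like barcodes.

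Across barcodes grouped by mt- share, nuclear members also took larger shares when all classes were pooled. In the WT library they made up 2.37% of UMIs other than mt- in barcodes under 5% mt-, 4.33% between 10 and 20%, and 6.79% between 40 and 60%. In the KO library the same bins had 2.1905%, 4.31% and 5.74%, and barcodes at 60% and over had 5.89%. Median genes per barcode in KO were 771 under 5%, 1006 between 10 and 20% and 292.5 at 60% and over, and the share of Malat1, a nuclear long noncoding RNA, went from 3.98% to 16.3%. The part of these in the trend was not tested.

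Within classes the slope varied. Granular convoluted tubule-like barcodes of the WT library went from 4.14% (4.0002 to 4.29%) in the bin from 5 to 10% mt- to 6.77% (6.51 to 7.04%, 20 barcodes) in the bin from 40 to 60%. The same class of the KO library stayed between 4.12% and 4.42% over the 5 bins from 5% upward. KO unnamed barcodes went from 4.10% to 6.24% over the bins from 5 to 60%, and KO intercalated duct-like barcodes from 2.67% under 5% to 3.97% between 20 and 40%. Ionocyte-like barcodes had 6.63% and 6.73% in the 2 WT bins, with overlapping intervals. In the 3 KO bins they had 5.44% (5.38 to 5.505%), 5.81% (5.75 to 5.88%) and 5.96% (5.81 to 6.11%), a small rise beyond counting error after the first bin.

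**Figure D2:**
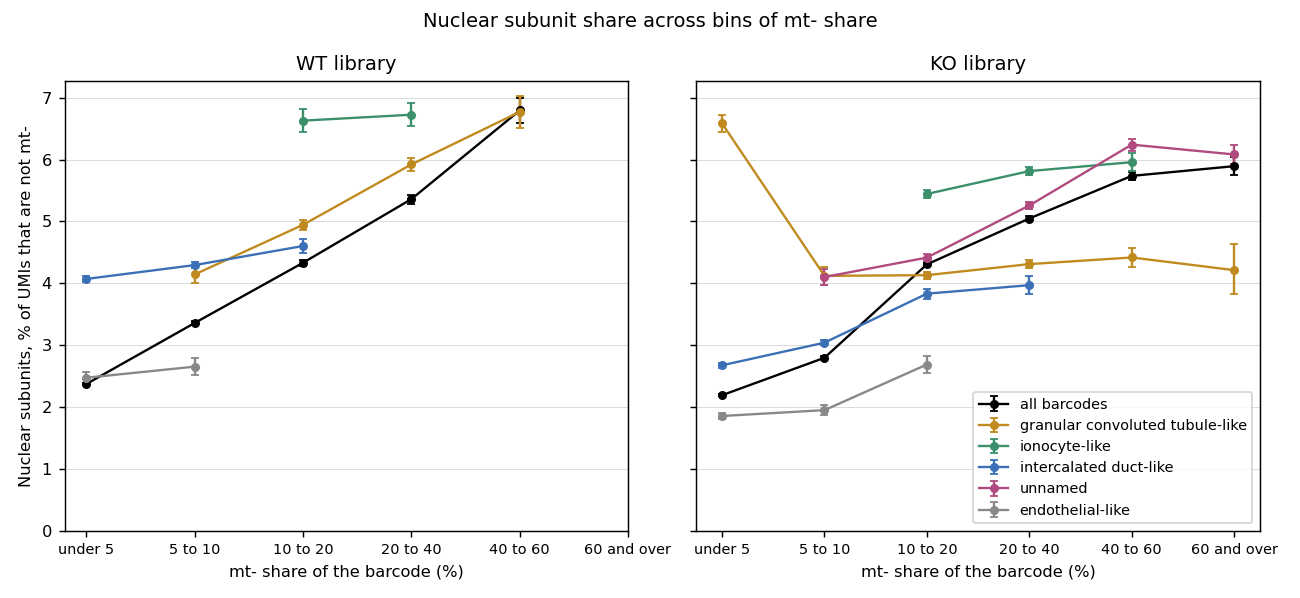
Nuclear subunits as a percentage of UMIs other than mt- (y) against bins of the mt- share of a barcode (x), for all barcodes and 5 classes of the WT (left) and KO (right) library, with 95% counting intervals; bins with at least 20 barcodes are drawn. The pooled line climbs from 2.37% to 6.79% in WT and from 2.1905% to 5.89% in KO, and the KO granular convoluted tubule-like line starts at 6.59% under 5% mt- and then lies between 4.12% and 4.42%.

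KO granular convoluted tubule-like barcodes held a cluster that stood apart. Its 95 barcodes had 6.89% nuclear subunits (6.75 to 7.04%) and a median mt- share of 1.94%, or 1.01 mt- UMIs per nuclear subunit UMI. The other 517 barcodes of the class had 4.16% (4.12 to 4.20%), a median mt- share of 21.5% and 7.31 mt- UMIs per nuclear subunit UMI. Klk1, a kallikrein of these cells, was alike at 132500 and 128000 CPM, whereas Malat1 was at 1178 and 100700 CPM. The 1 WT cluster of the class had a median mt- share of 18.6%. Without the 95 barcodes, an alternative chosen after the data were seen, the mt- share of the class in KO relative to WT was 1.05 in place of 0.975. Among the KO unnamed clusters, nuclear subunits made up 4.64%, 5.64% and 5.51%, with 11.6, 8.37 and 12.0 mt- UMIs per nuclear subunit UMI. These clusters had Klk1 at 80560, 29860 and 63260 CPM.

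Between the libraries, nuclear and mitochondrial members differed in opposite directions in several classes. Summed nuclear subunits in KO relative to WT were 0.719 (0.7105 to 0.7275) in intercalated duct-like, 0.564 (0.545 to 0.584) in macrophage-like, 0.792 (0.764 to 0.821) in endothelial-like, 0.840 (0.825 to 0.855) in ionocyte-like, 0.845 (0.833 to 0.857) in granular convoluted tubule-like, 0.893 (0.873 to 0.914) in basal duct-like and 0.903 (0.887 to 0.919) in acinar-like barcodes, the last turning to 1.04 when the deepest 5% of barcodes were left out, an alternative chosen after the data were seen. The kinds of acinar-like cluster were present in different proportions in the libraries, and each kind on its own had a lower nuclear share in KO, 3.80% and 2.66% in the clusters led by Smgc and 0.9996% and 0.739% in the others. The KO ionocyte-like class pooled a cluster at 6.41% (361 barcodes) and another at 4.84% (287 barcodes), both under the 6.72% of the WT cluster. Red cell-like barcodes had 1.04 (1.003 to 1.09), which turned to 0.979 with TMM scaling (trimmed mean of M values) and to 0.861 under the 20% limit. The mt- share in KO relative to WT was 1.72 in endothelial-like, 1.55 in red cell-like, 1.23 in intercalated duct-like and 1.17 in basal duct-like barcodes. In red cell-like barcodes it was 0.997 under the 20% limit. It was 1.05 in macrophage-like, 0.975 in granular convoluted tubule-like (1.34 at a clustering resolution of 2), 0.904 in acinar-like and 0.889 in ionocyte-like barcodes. None of these class sums passed the size rule.

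Over all barcodes the nuclear sum went the other way, with 3.03% in WT and 3.62% in KO, a ratio of 1.196 (1.19 to 1.203) that turned to 0.962 with TMM scaling and to 0.894 in barcodes with at least 500 genes and under 10% mt-. The mix of classes differed: of the UMIs other than mt- in the 8 compared classes, ionocyte-like barcodes gave 2.72% in WT and 18.8% in KO, granular convoluted tubule-like 8.05% and 18.1%, acinar-like 35.5% and 16.3%, and basal duct-like 23.1% and 5.32%. In these 8 classes the nuclear share was 2.99% in WT and 3.31% in KO. KO levels weighted by the WT mix gave 2.47%, a ratio of 0.825, and WT levels weighted by the KO mix gave 4.10%, against which the KO value was 0.807. Over these 8 classes the pooled ratio was 1.104, and it was under 1 at a fixed mix. The KO unnamed barcodes enter the ratio over all barcodes but not this weighting, so their part in that ratio was not tested.

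The number of mt- UMIs per nuclear subunit UMI was 2.82 in WT and 6.3 in KO over all barcodes. It was 1.62 and 2.80 in intercalated duct-like, 1.97 and 4.45 in endothelial-like, 3.08 and 5.75 in macrophage-like, 3.83 and 5.95 in red cell-like, and 1.96 and 2.60 in basal duct-like barcodes. It was 5.83 and 5.91 in ionocyte-like, 5.42 and 6.21 in granular convoluted tubule-like and 2.74 and 2.73 in acinar-like barcodes. The KO ionocyte-like value pools clusters at 5.27 and 6.80. Within the acinar-like class the number was higher in KO in each kind of cluster, 1.66 and 1.94 in those led by Smgc and 4.28 and 5.005 in the others, whose proportions differed between the libraries. By complex, over all barcodes, it was 1.74 and 4.41 for complex I, 2.80 and 6.97 for complex III, 4.67 and 8.79 for complex IV and 2.16 and 5.41 for complex V. Complex I, with 38 nuclear subunits and 7 mitochondrial ones, had the lowest ratio in both libraries.

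**Figure D3:**
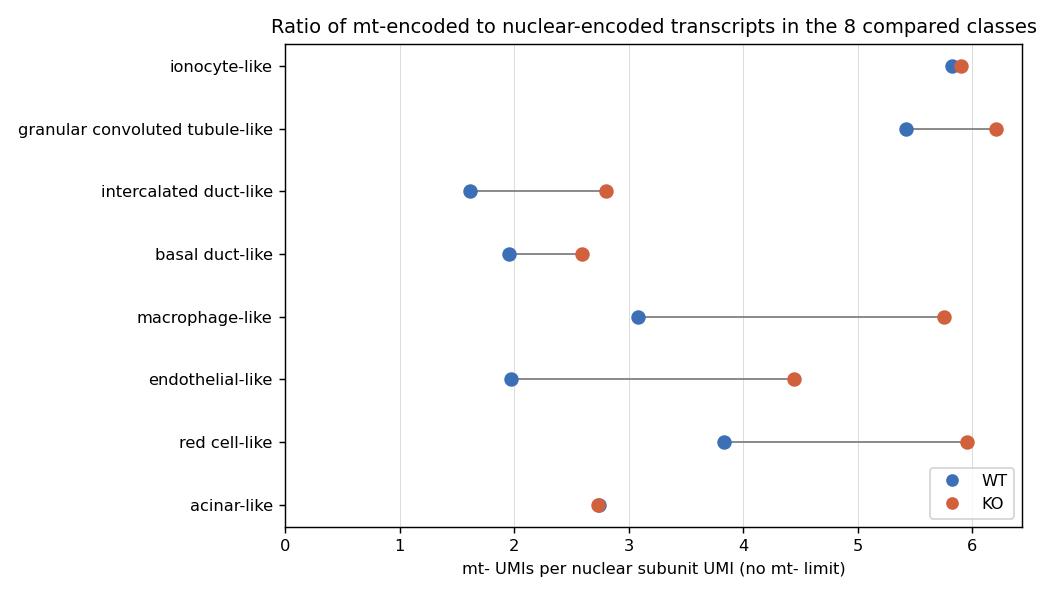
Mt- UMIs per nuclear subunit UMI (x) in the 8 compared classes (y), WT in blue and KO in orange, joined by a line, without an mt- limit. The points lie together for ionocyte-like barcodes (5.83 and 5.91) and apart for endothelial-like barcodes (1.97 and 4.45). The KO ionocyte-like point pools clusters at 5.27 and 6.80. The points of acinar-like barcodes (2.74 and 2.73) pool 2 kinds of cluster that were each higher in KO.

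Complexes I, III and V had lower nuclear sums in KO in each of the 7 classes other than red cell-like, for example 0.679, 0.676 and 0.724 in intercalated duct-like barcodes. Complex II, the succinate dehydrogenase, had a sum of 1.29 in acinar-like, 0.971 in granular convoluted tubule-like, 0.928 in intercalated duct-like, 0.8997 in endothelial-like (0.681 to 1.201), 0.8396 in macrophage-like, 0.83 in ionocyte-like and 0.732 in basal duct-like barcodes. Complex IV lay between 0.591 in macrophage-like and 0.968 in basal duct-like barcodes in those 7 classes.

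Member by member, 72 of 76 nuclear subunits with at least 50 UMIs had a ratio under 1 in intercalated duct-like barcodes, where 47.3% of all 6495 genes did, and the median log2 ratio, with 10 CPM added to both sides, was -0.53 against 0.04 for all genes. In macrophage-like barcodes it was 67 of 69 against 47.2% of 1703 genes, with medians of -0.80 and 0.05. Ionocyte-like barcodes had 63 of 76 against 45.0%, granular convoluted tubule-like 61 of 77 against 46.1%, endothelial-like 56 of 70 against 47.3% and basal duct-like 56 of 74 against 48.8%. In acinar-like barcodes 53 of 74 were under 1 against 27.6% of all genes, with medians of -0.17 and 0.36. Red cell-like barcodes had 30 of 63 against 62.5%, with medians of 0.01 and -0.18, and all barcodes pooled had 22 of 78 against 29.8%, with medians of 0.18 and 0.21. With markers of other classes in view, the macrophage-like comparison had acinar markers at 2.39% of WT and 0.52% of KO UMIs other than mt-, red cell markers at 0.95% and 2.101%, and macrophage markers at 1.48% and 0.910%, all 12 of the last with UMIs in both; their part in the ratio was not tested.

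By the size rule 15 class and gene pairs over 8 nuclear subunits were lower in KO, and 0 were higher in any class. In intercalated duct-like barcodes 5 of 76 members were lower (all genes 2.16% lower, 1.96% higher), and in macrophage-like barcodes 4 of 69 (all genes 5.17% lower, 7.63% higher). There were 2 of 77 in granular convoluted tubule-like barcodes (1.33% lower, 1.51% higher), 2 of 76 in ionocyte-like (0.552% lower, 0.502% higher), 1 of 74 in basal duct-like (2.30% lower, 1.60% higher) and 1 of 70 in endothelial-like ones (2.08% lower, 3.02% higher). None of 74 in acinar-like (1.02% lower, 8.94% higher) or of 63 in red cell-like barcodes (2.32% lower, 2.01% higher) passed. Over all barcodes none of 78 passed (2.63% lower, 7.35% higher). The members' shares were above the lower-going background in intercalated duct-like, ionocyte-like and granular convoluted tubule-like barcodes, on few genes each, and near or below it elsewhere.

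Ndufc1, a small accessory subunit of complex I, was the member that passed in most classes. It had 681 WT and 153 KO UMIs in intercalated duct-like barcodes (418.5 and 103 CPM; ratio 0.246, 0.205 to 0.293), 361 and 18 in basal duct-like (204 and 53.1 CPM; 0.260, 0.152 to 0.417), 137 and 304 in ionocyte-like (659 and 253 CPM; 0.384, 0.313 to 0.473) and 308 and 230 in granular convoluted tubule-like barcodes (499.5 and 199.5 CPM; 0.399, 0.335 to 0.475). In the other 4 classes its ratio lay between 0.328 in macrophage-like and 0.420 in acinar-like barcodes. Each of the 8 classes was lower in KO.

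Cox7a1 passed in granular convoluted tubule-like barcodes with 87 and 31 UMIs (0.191, 0.122 to 0.290) and in ionocyte-like barcodes with 63 and 108 (0.297, 0.2155 to 0.4115). Uqcr11, the smallest subunit of complex III, whose promoter holds both an NRF1 and an ETS match, passed in intercalated duct-like (901.5 and 378.5 CPM; 0.420) and macrophage-like barcodes (431 and 158 CPM; 0.366). Ndufs5, an accessory subunit of complex I, passed in the same 2 classes (0.351 and 0.269). Atp5g1 passed in intercalated duct-like (597 and 254 CPM; 0.426) and endothelial-like barcodes (444 and 159 CPM; 0.358, 0.258 to 0.498). Ndufb2 of complex I, which overlaps the gene model Gm42420 on its strand, passed in intercalated duct-like barcodes (298 and 79.3 CPM; 0.266). Atp5j2, subunit f of the ATP synthase (0.360), and Ndufa13, an accessory subunit of complex I also known as Grim19 (0.290), passed in macrophage-like barcodes.

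**Figure D4:**
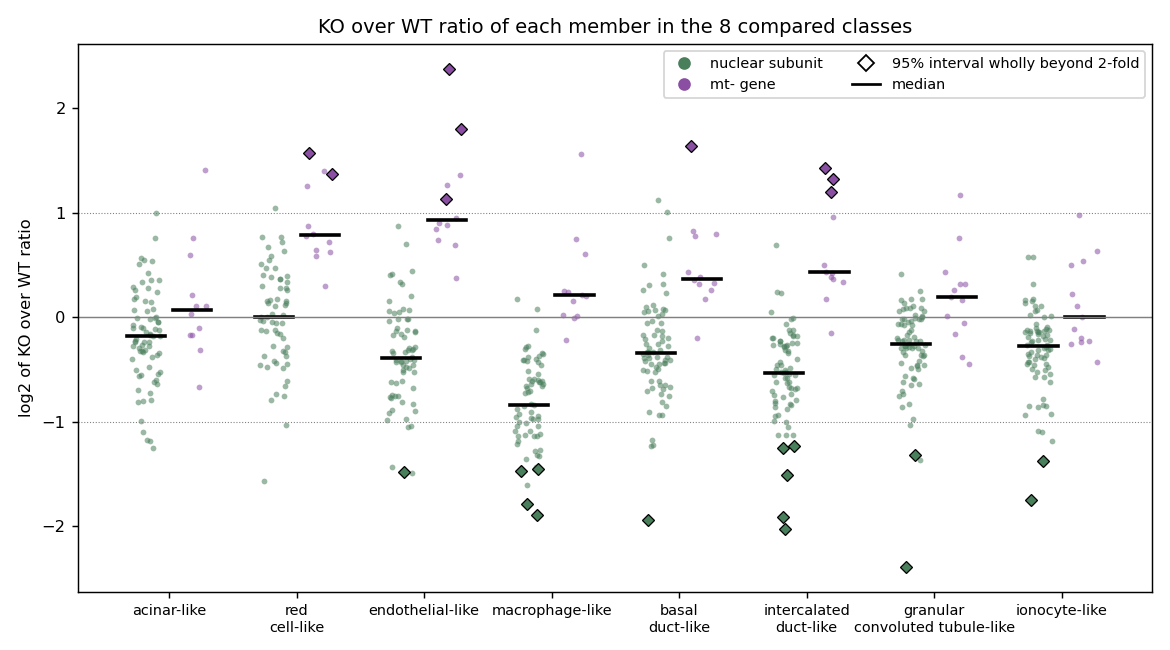
Log2 of the KO over WT ratio (y) of each member with at least 50 UMIs in the 8 compared classes (x); green points are nuclear subunits, purple mt- genes, diamonds pass the size rule and bars are medians. Nuclear medians lie under 0 in 7 classes, lowest in macrophage-like barcodes, and the diamonds of nuclear subunits all lie under 0.

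Across classes, 22 of the 62 nuclear subunits with enough UMIs in all 8 had a ratio under 1 in every class (35.5%), where 76 of all 587 such genes did (12.9%). A further 14 members were under 1 in all but 1 class. A ratio over 1 in every class was found for 0 of the 62 and for 60 of the 587 genes (10.2%). The lowest median over classes was that of Ndufc1 (0.345), and the 22 also held Atp5g1, Ndufb2, Uqcr11, Ndufa11, Ndufs5, Atp5j2, Ndufa13, Atp5j, Atp5k and Atp5h. Opposite to these stood Ndufa6, a complex I subunit of the LYR family, with a median ratio of 1.5: it was at 480 and 772 CPM in intercalated duct-like barcodes (1.61, 1.47 to 1.77) and at 741 and 1102 in ionocyte-like ones (1.49, 1.26 to 1.77), and was under 1 in macrophage-like barcodes (0.727). Ndufa4 had a median of 1.31, Ndufv2, a core subunit of the NADH-oxidising module, 1.19, and Sdhb 1.12. Cox4i1 was at 2339 and 2322 CPM in intercalated duct-like (0.993, 0.948 to 1.04) and at 3263 and 3218 in granular convoluted tubule-like barcodes (0.986, 0.934 to 1.04), with no difference detectable beyond counting error. The same 2 libraries enter every class, so classes are not replicates of the genotype.

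Assembly factors, which help to build complex I and are not part of it, were scarce, at 207 WT and 169 KO CPM in all. Their sum in KO relative to WT was 0.818 over all barcodes, 0.581 in intercalated duct-like, 0.510 in basal duct-like, 0.601 in ionocyte-like and 0.645 in granular convoluted tubule-like barcodes. Ndufaf3 had ratios from 0.262 to 0.353 in the 3 classes where it had enough UMIs. Ndufaf8 had ratios from 0.481 to 0.775 in 5 classes. None of the 8 passed the size rule in any class.

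Mt- genes were taken as a share of all UMIs. They passed the size rule upward over all barcodes in 11 of 13 cases, with ratios from 2.24 for mt-Nd2 to 5.24 for mt-Atp8. The genes mt-Co3 (1.85) and mt-Nd6 (1.97) did not. Of the genes other than mt-, which were counted against UMIs other than mt-, 7.35% passed upward. Fewer passed within classes. In intercalated duct-like barcodes these were mt-Atp8 (129 and 323 UMIs; 2.70, 2.192 to 3.33), mt-Nd4l (384 and 890; 2.50) and mt-Nd5 (528 and 1126; 2.30). Endothelial-like barcodes had mt-Nd1 (594 and 4639 UMIs; 2.193), mt-Nd4l (24 and 298; 3.49) and mt-Atp8 (6 and 111; 5.195, 2.31 to 14.5). In basal duct-like barcodes mt-Atp8 passed (93 and 56 UMIs; 3.11), and in red cell-like barcodes mt-Nd3 (144 and 229; 2.59) and mt-Nd4l (116 and 212; 2.98). None passed in ionocyte-like, granular convoluted tubule-like, acinar-like or macrophage-like barcodes, and none was lower by the rule in any class.

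For several mt- genes the share among mt- UMIs differed between the libraries in the same direction in each of the 8 compared classes. Among mt- UMIs, mt-Co3 took 23.4 to 25.3% over the 8 WT classes and 17.2 to 20.3% over the 8 KO classes, so the ranges did not overlap. The small ATP synthase subunit mt-Atp8 took 0.0669 to 0.118% in WT and 0.192 to 0.261% in KO, and mt-Nd5 of complex I 0.456 to 0.656% and 0.683 to 0.934%, again without overlap. The shares of mt-Atp6, mt-Co2, mt-Nd3 and mt-Nd4l were also higher in KO in all 8 classes, with overlapping ranges: mt-Atp6 20 to 24.7% and 22.6 to 26.9%, mt-Co2 6.25 to 7.71% and 7.21 to 8.24%, mt-Nd3 0.442 to 0.693% and 0.643 to 1.04%, and mt-Nd4l 0.230 to 0.556% and 0.429 to 0.968%. By contrast mt-Co1 was higher in KO in 3 classes, mt-Cytb in 5, mt-Nd2 in 5, mt-Nd1 in 7, mt-Nd4 in 1 and mt-Nd6 in 4. These genes are cut from common precursor transcripts, so their shares are not independent. Smaller classes outside the 8 did not all follow. In myoepithelial-like barcodes mt-Atp8 took 0.162% in WT and 0.128% in KO, on 12 UMIs each, and in NK or ILC-like ones 0.0584% and 0.215%. The KO share of mt-Nd5 was 0.608% in myoepithelial-like and 0.544% in adipocyte-like barcodes, inside the range of the 8 WT classes.

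The shift was seen on both sides of the mt- limit. Under 20% mt-, mt-Co3 made up 24.7% of mt- UMIs in WT and 19.0% in KO, and at or over 20% it made up 24.4% and 19.3%. For mt-Atp8 the values were 0.0983% and 0.240% under the limit and 0.0902% and 0.2004% over it. As mt-Co3 and mt-Atp8 each overlap mt-Atp6, the authors' assignment of reads at these borders enters these shares, and its part was not tested.

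**Figure D5:**
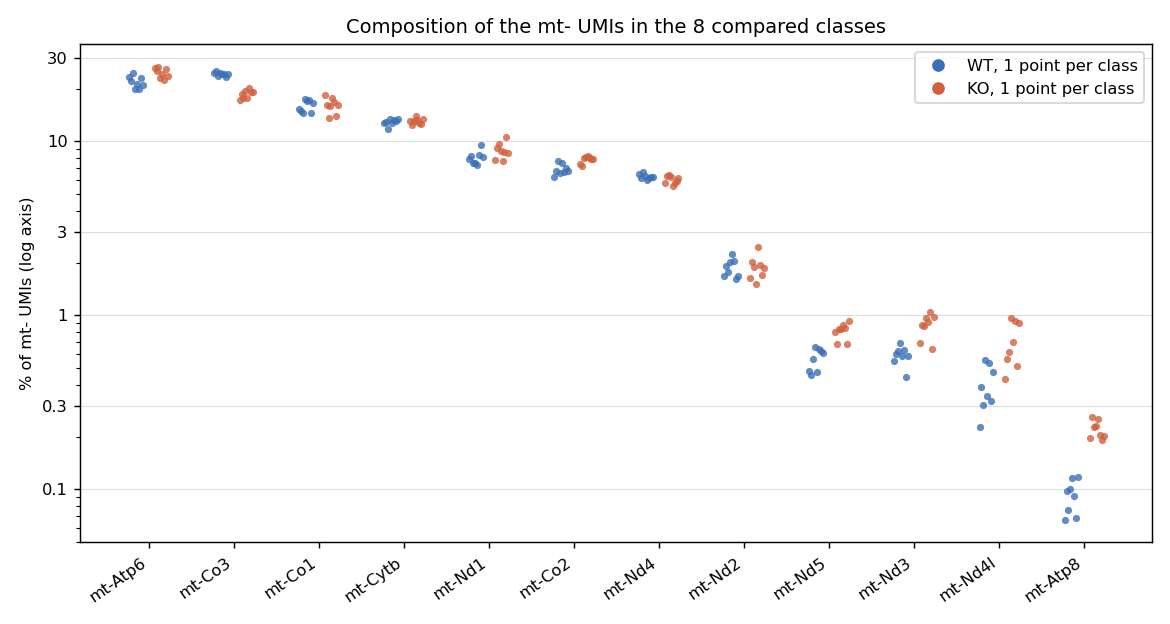
Share of each mt- gene among mt- UMIs (y, log axis) for 12 of the 13 genes (x; mt-Nd6, with the fewest UMIs, is left out), 1 point per class of the 8 compared, WT in blue and KO in orange. The points of mt-Co3 lie lower in KO (17.2 to 20.3% against 23.4 to 25.3%) and those of mt-Atp8 and mt-Nd5 higher, without overlap.

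Neighbouring pathways were read from lists of their genes, and the share of all genes past the size rule in each class is as given above. The 16 genes of the citric acid cycle and pyruvate dehydrogenase held 0.274% of UMIs other than mt- in WT and 0.199% in KO ionocyte-like barcodes, with 14 of 16 under 1 and 0 past the size rule. In granular convoluted tubule-like barcodes they held 0.231% and 0.208%, with 11 of 16 under 1. None of this list or of the 8 carrier genes, which include Cycs (cytochrome c), Cyc1 and the ADP/ATP exchanger Slc25a5, passed in any class or over all barcodes. Slc25a5 had 801 and 1010 CPM over all barcodes, a ratio of 1.26. Among 31 further assembly factors, Bcs1l of complex III was lower over all barcodes (57 and 17 UMIs; 0.276), and Uqcc2, also of complex III, was lower in intercalated duct-like (0.318) and macrophage-like barcodes (0.2002).

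Mitochondrial ribosomal proteins resembled the nuclear subunits in intercalated duct-like barcodes, with 58 of 72 under 1 and a median log2 ratio of -0.34; Mrps25, Mrpl54, Mrpl36 and Mrpl14 were lower by the rule. Cytosolic ribosomal proteins, a gauge of the make-up of the RNA, were also lower in KO in macrophage-like (18.5% and 14.2%), endothelial-like (24.7% and 18.2%), basal duct-like (33.2% and 25.7%) and red cell-like barcodes (10.9% and 7.98%). They were higher in KO in ionocyte-like (12.6% and 15.6%), granular convoluted tubule-like (8.47% and 10.8%) and acinar-like barcodes (8.68% and 13.6%), and held 18.5% and 18.6% in intercalated duct-like ones. Their part in the nuclear subunit ratios was not tested. By the rule 6 of them were higher in acinar-like barcodes, among them Rps27 (2.71), Rps29 (2.44), Rpl38 (2.295) and Rpl36 (2.27). Single mitochondrial ribosomal genes lower by the rule elsewhere were Mrps15 in basal duct-like (107 and 3 UMIs), Mrpl34 in granular convoluted tubule-like (74 and 46 UMIs), Mrpl14 in macrophage-like (41 and 17 UMIs) and Mrpl36 over all barcodes (492 and 171 UMIs). In glycolysis, Slc2a1, the glucose importer Glut1, was higher in KO over all barcodes (49.0 and 127 CPM; 2.58) and in intercalated duct-like barcodes (2.90), where Pfkl (0.256) and Pgam1 (0.325) were lower. In macrophage-like barcodes the hexokinase Hk2 was higher (4.05).

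Of 19 regulators of mitochondrial biogenesis and mitochondrial DNA expression, 1 passed over all barcodes: Ppargc1a, the coactivator PGC-1alpha, with 1186 WT and 3268 KO UMIs (149 and 379 CPM; 2.545, 2.38 to 2.72). Its level was 735, 1000 and 582 CPM in the 3 KO unnamed clusters. Among granular convoluted tubule-like clusters it was 268 CPM in WT, 513 in the larger KO one and 77.0 in the smaller KO one (10 UMIs). Ionocyte-like barcodes had 481 CPM in WT, and 435 and 629 CPM in their KO clusters. Within the 8 compared classes none of the 19 passed. Nrf1 had 108 and 243 UMIs and Gabpa 96 and 218 over all barcodes, with ratios of 2.08 (1.65 to 2.63) and 2.097 (1.64 to 2.70), neither of which passed.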

How the data were processed

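The deposited tables held raw UMI counts per gene and barcode for 1 WT and 1 KO library, prepared with 10x Genomics Chromium Single Cell 3' chemistry per the labels' protocols. The submitters' processing notes name genome build mm10, Seurat 3.1.2, Cell Ranger 2.1.0 and bcl2fastq 2.19.1, with no role or order. How barcodes were filtered before the counts were deposited, and how reads in overlapping genes were assigned, no label or file header states. Gene names came from GENCODE M21, which matched 27645 of 27998 identifiers.

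Barcodes with at least 200 genes were kept. The libraries held 8636573 WT and 10582455 KO UMIs in these barcodes, with 2175 to 46594 and 1077 to 68173 per barcode. Each library was clustered on its own with scanpy 1.11.5 and leidenalg 0.10.2 (counts scaled to 10000, 2000 variable genes, 30 principal components, 15 neighbours, resolution 1), leaving out Trp63, all mt- genes and all nuclear members. A cluster was named where at least 3 markers of a class led it. The thresholds for counting a marker, such as its presence in 20% of the barcodes of a cluster, were chosen once the clusters were known.

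UMIs were summed per class. Nuclear members were taken as CPM, counts in 1000000 UMIs other than mt-, and mt- genes as a share of all UMIs. Ratios carry exact conditional 95% intervals of Poisson counts, and shares of barcodes exact binomial (Clopper-Pearson) ones, from scipy 1.17.1; both cover counting error only. The size rule was met by a gene with 50 or more UMIs, WT and KO added, whose whole interval lay beyond 2-fold. The rule was also run on simulated Poisson counts with 3-fold lower genes. It called 46.3% of 188 such genes in ionocyte-like, 53.5% of 200 in intercalated duct-like and 45.2% of 197 in macrophage-like barcodes. It called 0 unchanged genes. The simulated counts held no variation between libraries beyond counting error, so they give no rate of false calls for the real libraries. Log2 ratios have 10 CPM added to both sides. Classes with at least 50 barcodes in each library were compared.

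Alternatives were the 20% mt- limit, joint clustering, a higher resolution, clustering with the members, other totals, TMM factors from edgeR 4.0.16, thinning to 1000 UMIs, a lower UMI minimum and stricter barcode filters, plus 3 chosen after the data were seen. Named were all mt- genes, the 2 most counted nuclear subunits of each complex, the genes of the paired forms, members past the size rule, the 2 highest and 2 lowest members of each class against the other barcodes, and list genes past the rule. Other genes were named after their values were seen. The members and lists were chosen with earlier results of these data known.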

Additional observations from a re-analysis of the deposited data

How the results depend on the processing

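Of the KO to WT ratios of summed nuclear subunits, 67 values kept their direction and their side of the 2-fold rule under the alternatives and 7 reversed. Over all barcodes the ratio became 0.962 with TMM scaling and 0.894 with at least 500 genes and under 10% mt-. In red cell-like barcodes it became 0.861 with the 20% limit, 0.972 at resolution 2, 0.997 as a share of all UMIs and 0.979 with TMM. In acinar-like barcodes it became 1.04 without the deepest 5% of barcodes, an alternative chosen after the data were seen. Summed mt- genes kept direction and side in 21 values. Over all barcodes their ratio fell inside 2-fold with the limit (1.48), and it reversed in red cell-like barcodes with the limit (0.997) and in granular convoluted tubule-like barcodes at resolution 2 (1.34) and without the KO cluster of low mt- share (1.05).

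Against other barcodes of the library, WT acinar-like nuclear subunits moved inside 2-fold with the limit (0.507), joint clustering (0.579) and all UMIs (0.505), and reversed without the 50 most abundant genes (1.3). WT ionocyte-like ones moved inside 2-fold with all UMIs (1.78) and without those genes (1.71). Without those genes KO acinar-like barcodes had 0.745, KO endothelial-like 0.476, now beyond 2-fold, and KO red cell-like 1.1, reversed. With the limit, mt- ratios moved inside 2-fold in WT acinar-like (0.649) and in KO basal duct-like (0.611), endothelial-like (0.668), intercalated duct-like (0.777) and macrophage-like barcodes (0.704), and reversed in WT intercalated duct-like ones (1.12). WT red cell-like mt- genes reversed at resolution 2 (1.02).

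The 15 class and gene pairs past the size rule became 8 after thinning to 1000 UMIs, which leaves fewer counts, and 26 without the 50 most abundant genes. For the other changes the cause was not tested. No paired analysis was possible because each genotype had 1 library. Differences between libraries cannot be told apart from differences between genotypes, free RNA and doublets were not removed, and shallow classes limit what the size rule can reach.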
